A study of Bos taurus with 20 samples.

Results

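Expression of 9 genes of retinoid binding and retinoic acid metabolism was described in adipogenic (A) and non-adipogenic (N) clones of bovine mesenchymal stem cells (MSCs). The 9 genes, RBP4, STRA6, CRABP1, CRABP2, RDH10, DHRS3, ALDH1A1, ALDH1A2 and ALDH1A3, were chosen by symbol from a table of 33063 named genes, and all 9 were present in it. MSCs had been grown from the visceral fat of young crossbred calves in serum with bFGF, sorted into single cells and grown as clones. A clones formed adipocytes in a differentiation test and N clones did not. RNA was taken from cells of each clone that had not been differentiated, so the groups differ in the outcome of a later test and not in any treatment. Each group held 10 clones with 1 library each, of which animals 17 and 20 gave 1 clone per group and animals 22 and 23 gave 4 per group. Each library is 1 clone, so clones of 1 animal share a donor. The A clones had been picked for the highest capacity to differentiate, and N clones were taken in equal number from each animal as controls.

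Retinol, or vitamin A, travels in blood bound to the carrier RBP4, and the membrane receptor STRA6 takes it up into cells. Inside the cell, RDH10 oxidises retinol to retinal and DHRS3 reduces retinal back to retinol, while the retinal dehydrogenases ALDH1A1, ALDH1A2 and ALDH1A3 carry out the irreversible step from retinal to retinoic acid. CRABP1 and CRABP2 bind retinoic acid, which enzymes of the CYP26 family clear and which acts on genes through the nuclear receptors RAR and RXR. In fat, retinal, retinoic acid and these enzymes are known to influence whether progenitor cells become adipocytes.

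The libraries held 14908802 to 43111345 counts in N clones (median 16316703.5) and 14615493 to 29185355 in A clones (median 16112862). Levels are CPM, counts relative to the TMM-scaled library size, and means are given ± SD with n = 10 clones per group. They are not corrected for gene length, so levels of different genes are not compared. Fold changes are log2 values of A against N clones ± their standard error (SE), from edgeR's quasi-likelihood test with animal as a block and Benjamini-Hochberg adjustment over 12900 tested genes. A gene was called where the adjusted p was under 0.05 and the change at least 2-fold. The summed level of 9 MSC markers was 27440 to 50390 CPM in N and 38500 to 56870 CPM in A clones. COL1A2, COL1A1 and VIM had the highest means (15540, 10430 and 8149 CPM in N clones), so the sum says little of the other markers. The lowest levels of THY1 and NT5E were 0.395 and 0.508 CPM among N clones, against 17.97 and 65.2 CPM among A clones. The summed level of 8 macrophage and leukocyte markers was 0.885 to 10.7 CPM in N and 2.82 to 12.65 CPM in A clones, and of these PTPRC did not exceed 0.253 CPM and LYZ had 0 counts in every clone. N clones 22-5 and 22-9 of animal 22 stood apart with summed levels of 11 mesothelial markers of 10200 and 7096 CPM, and the results for ALDH1A3 and ALDH1A2 are given with and without them.

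Transcripts for the uptake receptor STRA6 and for the retinoic acid-forming enzyme ALDH1A1 were upregulated in A clones. Of the 8 genes that passed the filter on low counts, these 2 were called higher in A clones and 0 were called lower. Of all tested genes, 3.95% were called higher and 1.81% lower. At an unadjusted p under 0.05, 4 of the 8 genes were higher in A clones (STRA6, ALDH1A1, ALDH1A3 and CRABP1) and 0 were lower, against 17.7% and 18.5% of all tested genes. The median log2 fold change of the 8 genes was 0.84, against -0.01 over all tested genes. None of the 9 genes had every A clone above every N clone, a pattern seen in 0.225% of all tested genes. In these bulk libraries, a higher share of expressing cells and more RNA per cell cannot be told apart.

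**Figure D1:**
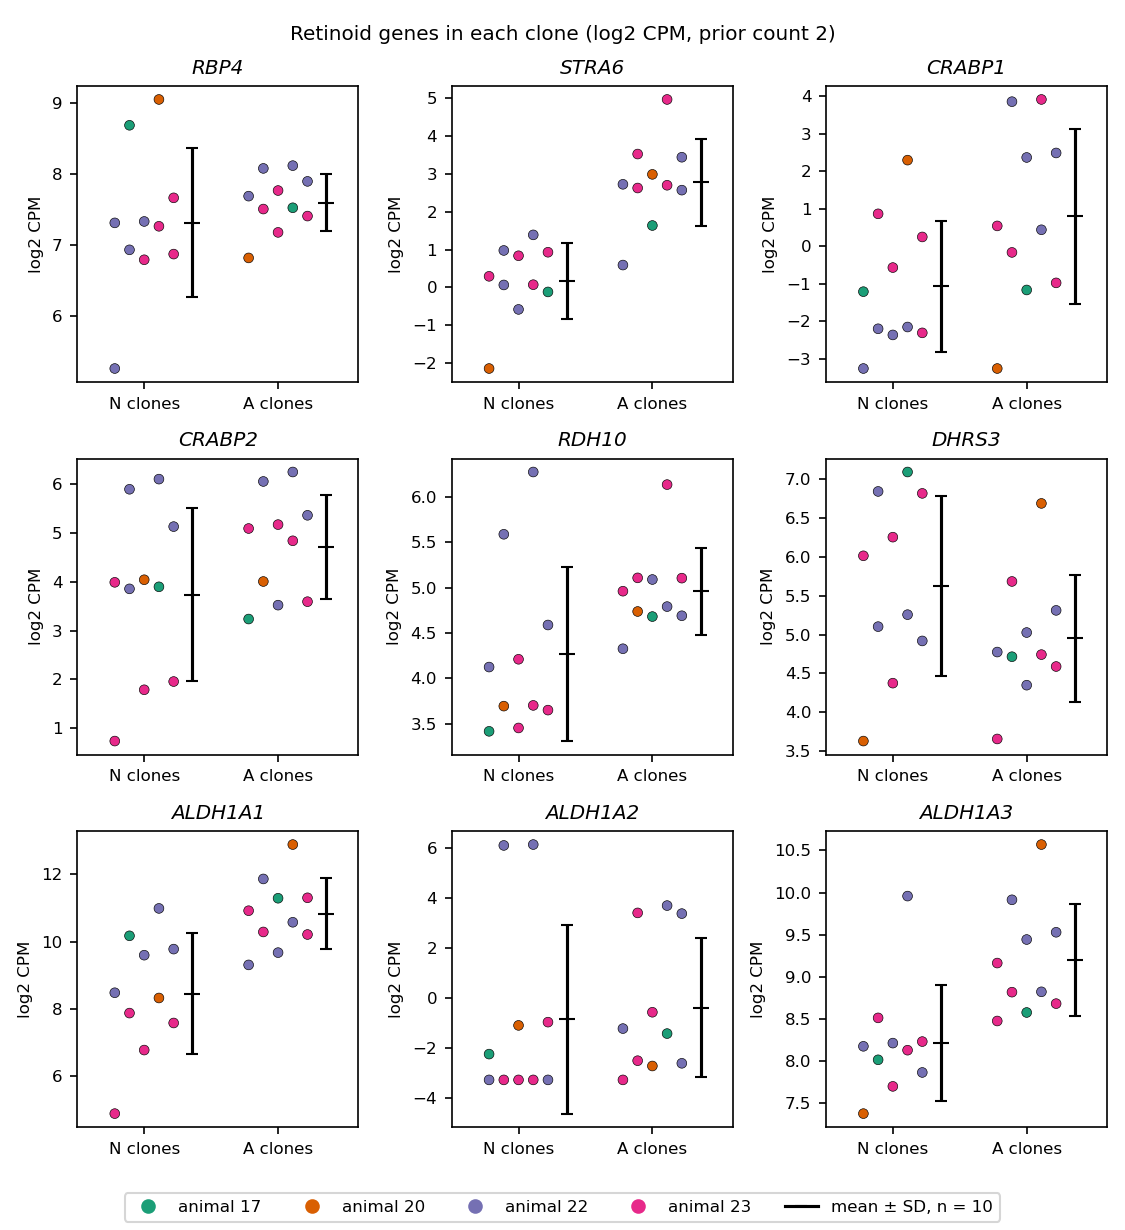
Level of each of the 9 retinoid genes in every clone, as log2 CPM with a prior count of 2 (vertical axis, a separate scale for each gene), in N and A clones. Points are clones coloured by animal, and bars show mean ± SD over 10 clones. For STRA6, 9 A clones lay above all N clones, while the ALDH1A2 panel shows 2 N and 3 A clones far above the others.

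The carrier RBP4 did not pass the test. In N clones it ranged from 38.1 to 529 CPM with a median of 155.7 CPM, and in A clones from 112.4 to 276.9 CPM with a median of 194.5 CPM. The A clones lay inside the range of the N clones, with the N clones of animals 17 (411 CPM) and 20 (529 CPM) above all A clones. The SD was 151.2 CPM in N and 52.6 CPM in A clones, and the log2 fold change was 0.24 ± 0.33 (SE, adjusted p = 0.619, edgeR's quasi-likelihood test). The mean log2 difference within animals was negative in animals 17 (-1.16) and 20 (-2.23) and positive in animals 22 (1.24) and 23 (0.32), so no common direction was seen across animals.

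The receptor STRA6 had low counts but showed the smallest adjusted p of the 9 genes. It ranged from 0.123 to 2.51 CPM in N clones, with a median of 1.03 CPM, and from 1.40 to 31.0 CPM in A clones, with a median of 6.43 CPM. The only A clone within the range of the N clones was 22-121, at 1.40 CPM, and 6 N clones lay below it. The libraries of N clones held between 2 and 56 STRA6 counts and those of A clones between 23 and 473, so values of single N clones carry a large counting error. STRA6 rose 7.01-fold, with a fitted log2 difference of 2.81 ± 0.48 (SE, adjusted p = 0.00169, edgeR's quasi-likelihood test). It was higher in the A clones of all 4 animals, by 1.75, 5.12, 1.87 and 2.92 on the log2 CPM scale in animals 17, 20, 22 and 23. With animal 23 left out, STRA6 changed by 2.45 on the log2 scale, which did not pass the test (adjusted p = 0.108).

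Among the binding proteins, CRABP1 was near the detection limit in many clones and high in a few. In N clones it ranged from 0 to 4.79 CPM with a median of 0.223 CPM, and in A clones from 0 to 14.9 CPM with a median of 1.30 CPM. The 4 A clones above all N clones were 22-11 (14.3 CPM), 22-121 (5.48 CPM), 22-16 (5.04 CPM) and 23-68 (14.9 CPM). The gene had a count of 0 in A clone 20-106 and N clone 22-18. By counting error only, 3 counts over the library total without TMM scaling are 0.130 and 0.0696 CPM. The highest N clone, 20-15, came from the same animal as the A clone without counts. The mean level was 0.889 ± 1.48 CPM in N and 4.39 ± 5.72 CPM in A clones, with a log2 fold change of 3.09 ± 1.22 (SE) that did not pass the test (adjusted p = 0.0793, edgeR's quasi-likelihood test). Without animal 20 the log2 fold change was 3.59 with an adjusted p of 0.0248, and without A clone 23-68 it was 2.01 with an adjusted p of 0.327. DESeq2, whose model with the same block gave a log2 fold change of 3.27, called CRABP1 higher (adjusted p = 0.00334).

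CRABP2, which carries retinoic acid to its nuclear receptors, did not pass the test. It ranged from 1.56 to 68.9 CPM in N clones (median 15.3 CPM) and from 9.33 to 76.2 CPM in A clones (median 31.3 CPM). Only 1 A clone lay above all N clones and 3 N clones lay below all A clones, all 3 from animal 23. The log2 fold change was 0.83 ± 0.51 (SE, adjusted p = 0.253, edgeR's quasi-likelihood test). Of the 4 animals, 23 had a mean log2 difference of 2.56, and the values were 0.05, -0.04 and -0.66 in 22, 20 and 17.

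The pair of enzymes that interconvert retinol and retinal had fold changes of opposite sign, and neither was called. RDH10, the oxidising enzyme, ranged from 10.6 to 77.4 CPM in N clones (median 15.1 CPM) and from 19.95 to 70.3 CPM in A clones (median 29.3 CPM). It lay below all A clones in 7 N clones, while N clone 22-18 (77.4 CPM) lay above all A clones. The log2 fold change of RDH10 was 0.64 ± 0.36 (SE, adjusted p = 0.215, edgeR's quasi-likelihood test). Without N clone 22-18 its adjusted p was 0.0395, but the log2 fold change of 0.87 was less than 2-fold, so it was not called. Without animal 22 it was past both thresholds (1.48, adjusted p = 0.00701).

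DHRS3, the reducing enzyme, ranged from 12.3 to 136.2 CPM in N clones (median 51.3 CPM) and from 12.5 to 102.9 CPM in A clones (median 27.0 CPM). The ranges overlapped almost completely, with 3 N clones above all A clones. The log2 fold change of DHRS3 was -0.91 ± 0.46 (SE, adjusted p = 0.161, edgeR's quasi-likelihood test). Animal 20 differed in sign from the others, with 12.3 CPM in its N clone and 102.9 CPM in its A clone. Without animal 20 the log2 fold change of DHRS3 was -1.20 and passed both thresholds (adjusted p = 0.0314). The log2 ratio of RDH10 to DHRS3, chosen after the values were seen and not tested, averaged -1.36 ± 1.5 in N clones and 0.01 ± 1.02 in A clones, and 3 A clones lay above all N clones.

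ALDH1A1, a cytosolic retinal dehydrogenase, was upregulated in A clones. It ranged from 29.2 to 2033 CPM in N clones with a median of 337.4 CPM, and from 632.4 to 7602 CPM in A clones with a median of 1732 CPM. The groups overlapped, but 6 N clones lay below all A clones and 4 A clones above all N clones. N clones varied widely, with 69.6-fold between the lowest (23-10) and the highest (22-18), against 12.0-fold among A clones. In A clone 20-106 the gene held 155066 counts, or 0.671% of the library. Mean levels were 607.3 ± 621.2 CPM in N and 2372 ± 2062 CPM in A clones, and ALDH1A1 rose 4.92-fold (log2 fold change 2.30 ± 0.61, SE, adjusted p = 0.0158, edgeR's quasi-likelihood test).

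The ALDH1A1 difference was of unequal size in animals 22 and 23, although the test of that inequality, given with the interactions, did not pass the threshold. In animal 23, the 4 N clones averaged 140.5 ± 90.5 CPM and the 4 A clones 1726 ± 635.8 CPM, with no overlap. In animal 22, the 4 N clones averaged 1010 ± 718.3 CPM and the 4 A clones 1677 ± 1425 CPM, with overlap. The mean of A clones was thus close in both animals, and that of N clones was lower in animal 23. With animal 23 left out, the log2 fold change was 1.28 and did not pass the test (adjusted p = 0.322), while with animal 22 left out it was 3.42 (adjusted p = 0.0117).

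ALDH1A3, a second enzyme for the same step, had an adjusted p just above the threshold. It ranged from 166.3 to 994.6 CPM in N clones (median 284.7 CPM) and from 356.3 to 1519 CPM in A clones (median 513.2 CPM). It was below all A clones in 8 of the 10 N clones. The highest N clone, 22-5 with 994.6 CPM, stood far above the next one (23-10 with 365.5 CPM). Mean levels were 339.4 ± 236.7 CPM in N and 654.5 ± 359.5 CPM in A clones, with a log2 fold change of 0.85 ± 0.30 (SE, adjusted p = 0.0523, edgeR's quasi-likelihood test). The difference had the same sign in all 4 animals. Without N clone 22-5 the log2 fold change was 1.14 and past both thresholds (adjusted p = 0.00628), and without both 22-5 and 22-9 it was 1.09 (adjusted p = 0.0153).

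ALDH1A2 was nearly silent except in 5 clones and did not pass the filter on low counts. In N clones it ranged from 0 to 71.1 CPM with a median of 0.0545 CPM, and in A clones from 0 to 13.0 CPM with a median of 0.30 CPM. N clones 22-5 and 22-9 held 69.5 and 71.1 CPM, and A clones 22-11, 22-16 and 23-62 held 13.0, 10.4 and 10.6 CPM. The other 15 clones did not exceed 0.576 CPM, or 8 counts. A count of 0 was found in 5 N clones and 1 A clone. At these depths, 3 counts are 0.0696 to 0.196 CPM of the library total without TMM scaling. In a fit without the filter the log2 fold change was 0.13 ± 1.94 (SE, adjusted p = 0.977), so no difference was detectable, and its sign differs from that of the group means. Without N clones 22-5 and 22-9, the other 8 N clones averaged 0.111 ± 0.177 CPM (SD, n = 8), and the log2 fold change was 4.55 ± 1.84 (SE), which did not pass the test (adjusted p = 0.146, edgeR's quasi-likelihood test).

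ALDH1A2 is a known marker of mesothelium, the lining of the body cavities. The 5 clones with more than 10 CPM of ALDH1A2 were 5 of the 6 clones with the highest summed levels of 11 mesothelial markers, at 462.4 to 10200 CPM. The other of the 6, N clone 23-10, had 631.8 CPM of these markers but 0.413 CPM of ALDH1A2. The remaining 14 clones had summed mesothelial levels of 9.31 to 328.4 CPM. KRT8 had the highest mean of the 11 markers in both groups, so the sum says little of the others. KRT8 was at least 158.9 CPM in the 5 clones and at most 13.25 CPM in all others. WT1 was at 205.5 and 258.3 CPM in N clones 22-5 and 22-9, but at 31.5 to 60.35 CPM in the 3 A clones. N clones 23-10, 23-22 and 23-74, with little or no ALDH1A2, had more WT1 than these A clones (147.7, 177.4 and 137.4 CPM). The part of mesothelial cells in the ALDH1A2 values was not tested. Since a clone was grown from 1 sorted cell, the 5 clones are single instances, and clones of both groups are among them.

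**Figure D2:**
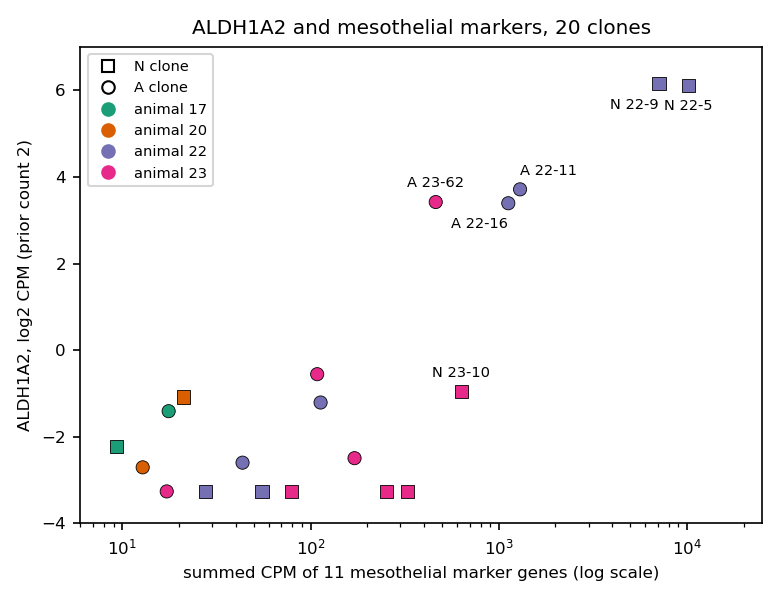
ALDH1A2 level of each clone (vertical axis, log2 CPM with a prior count of 2) against the summed CPM of 11 mesothelial marker genes (horizontal axis, log scale). Squares are N clones and circles A clones, coloured by animal. The 5 clones above 10 CPM of ALDH1A2 all have at least 462.4 CPM of mesothelial markers, and N clone 23-10 has 631.8 CPM of them with little ALDH1A2.

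**Figure D3:**
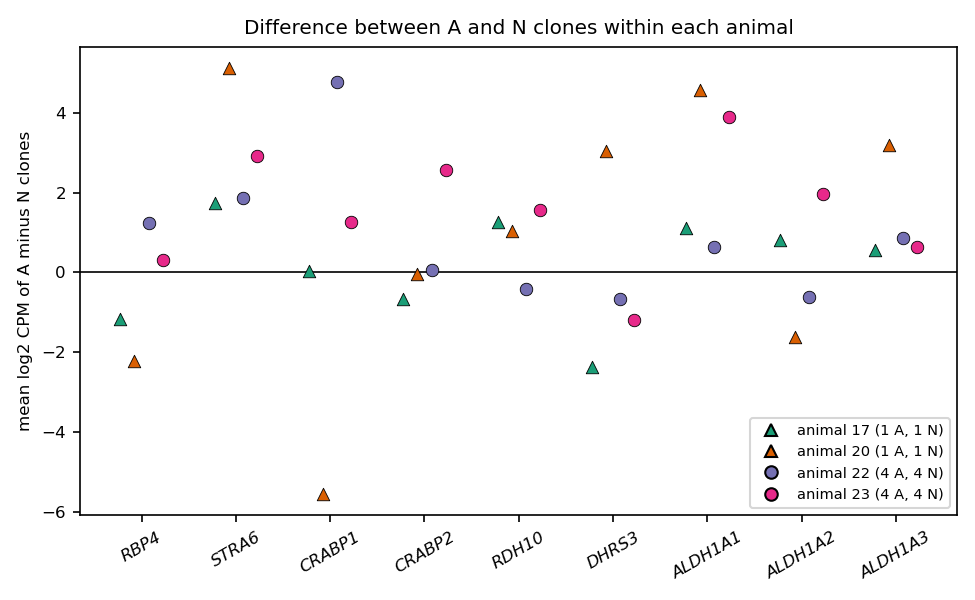
Difference between the mean log2 CPM of A and N clones within each animal (vertical axis) for the 9 genes. Triangles are animals with 1 clone per group and circles animals with 4 per group. STRA6, ALDH1A1 and ALDH1A3 lie above 0 in all 4 animals, and the points of animal 20 lie farthest from 0 for RBP4, STRA6, CRABP1, DHRS3, ALDH1A1 and ALDH1A3.

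The clones of animal 20 held many of the extreme values. A clone 20-106 had the highest levels among A clones of ALDH1A1, ALDH1A3 and DHRS3 and the lowest of RBP4 and CRABP1. N clone 20-15 had the lowest levels among N clones of STRA6, ALDH1A3 and DHRS3 and the highest of RBP4 and CRABP1. With 1 clone per group in this animal, no spread within it can be given.

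Whether the difference between A and N clones itself differed between animals 22 and 23 was tested as an interaction on their 16 clones. None of the 8 tested retinoid genes passed an adjusted p of 0.05 (edgeR's quasi-likelihood test), against 4 of all 12915 genes in this fit (0.031%). At an unadjusted p under 0.05 there were 3, RDH10, ALDH1A1 and CRABP1, against 9.06% of all genes in the fit. For RDH10 the difference was larger in animal 23 than in animal 22 by 2.28 ± 0.57 (log2, SE, adjusted p = 0.319). Its level was 13.6 ± 3.29 CPM in N and 42.5 ± 18.6 CPM in A clones from animal 23, and 41.7 ± 27.2 CPM in N and 26.8 ± 5.77 CPM in A clones from animal 22. The interaction was 2.89 for ALDH1A1 (standard error 0.96, adjusted p = 0.409) and -4.11 for CRABP1 (standard error 1.75, adjusted p = 0.517). For ALDH1A3 it was -0.02 with an SE of 0.56.

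Other genes of the pathway were taken from 5 lists with 70 genes in all, of which 68 were in the table and 40 were tested. Of these 40, 0 were called higher and 3 lower in A clones (RARG, MEIS2 and NR2F2), against 3.95% and 1.81% of all tested genes. The median log2 fold change of the 40 was -0.12. By adjusted p alone, 6 of the 40 were lower (edgeR's quasi-likelihood test), against 10.3% of all tested genes, which is near the background. In the other direction, 0 of the 40 were higher by adjusted p alone, against 1333 of all 12900 tested genes. At an unadjusted p under 0.05 there were 5 higher and 10 lower, against 17.7% and 18.5% of all tested genes.

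All 3 members of the RAR family were lower in A clones by adjusted p alone, against 10.3% of all tested genes. Of the 3, only RARG was called. RARG ranged from 21.4 to 58.4 CPM in N clones (median 41.2 CPM) and from 11.1 to 28.3 CPM in A clones (median 15.7 CPM). It was below all N clones in 6 A clones and above all A clones in 7 N clones. RARG fell by 1.19 ± 0.18 (log2, SE, adjusted p = 0.000897, edgeR's quasi-likelihood test) and was lower in the A clones of all 4 animals.

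RARA ranged from 53.7 to 130.4 CPM in N and from 38.9 to 80.0 CPM in A clones, with medians of 84.5 and 53.5 CPM. RARA fell by 0.60 ± 0.12 (log2, SE, adjusted p = 0.00395, edgeR's quasi-likelihood test), which is less than 2-fold. RARB, itself a classical target gene of retinoic acid, averaged 21.8 ± 10.4 CPM in N and 12.7 ± 7.13 CPM in A clones and fell by 0.86 ± 0.30 (SE, adjusted p = 0.0483, same test). The RARB result was not robust, since it was lost in 16 of the 20 fits that left out 1 clone, where the adjusted p reached 0.0954.

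The RXR partners did not pass the test, with log2 fold changes of -0.23 for RXRA (adjusted p = 0.247) and -0.17 for RXRB (adjusted p = 0.118), and RXRG had 0 counts in every clone. PPARD, a receptor that retinoic acid can reach through the binding protein FABP5, had a log2 fold change of 0.20 (adjusted p = 0.342, edgeR's quasi-likelihood test). FABP5 itself was at -0.30 (adjusted p = 0.534).

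**Figure D4:**
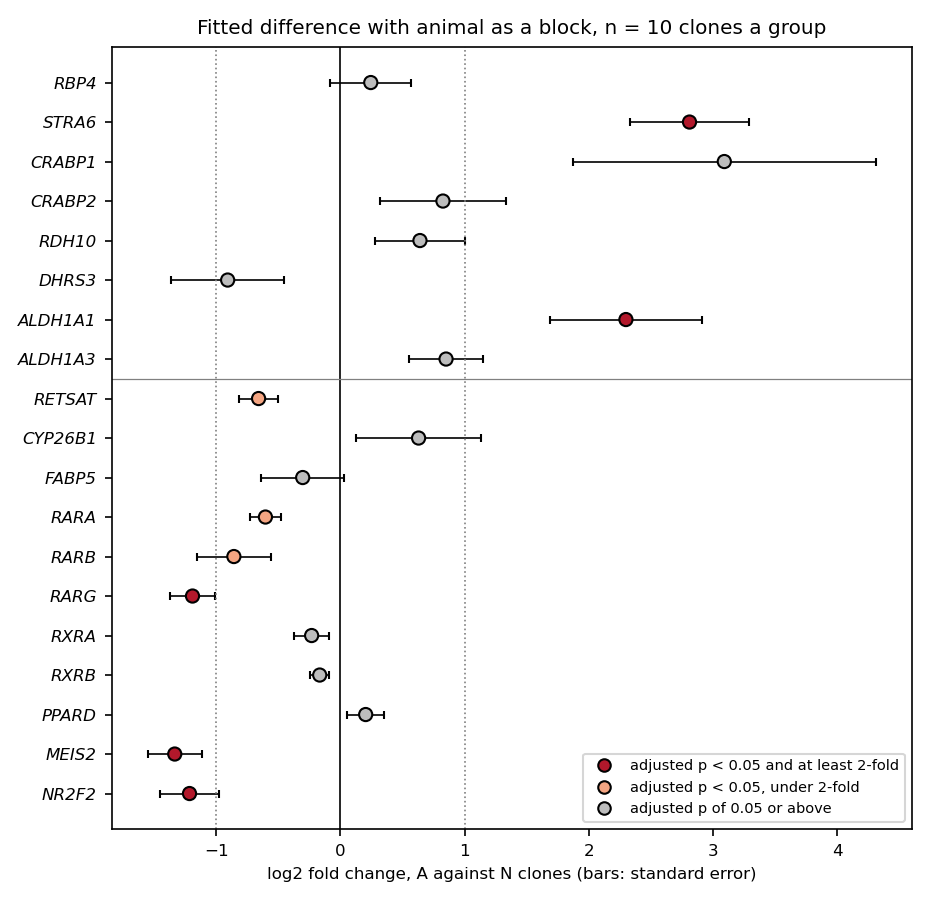
Fitted log2 fold change of A against N clones (horizontal axis, bars show the standard error) for the 8 tested retinoid genes (above the line) and 11 other genes of the pathway (below it). Dotted lines mark a 2-fold change. Dark points passed both thresholds, which were STRA6 and ALDH1A1 on the right and RARG, MEIS2 and NR2F2 on the left.

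Among known target genes of retinoic acid, 2 of 16 tested were called lower in A clones and 0 higher, against 1.81% and 3.95% of all tested genes. The median log2 fold change of the 16 was -0.08. RARRES1, which the filter left out, was called higher in a fit without the filter (2.62 ± 0.84, SE, adjusted p = 0.04999, edgeR's quasi-likelihood test). The homeobox gene MEIS2 ranged from 32.4 to 129.5 CPM in N clones (median 74.7 CPM) and from 21.4 to 40.8 CPM in A clones (median 28.2 CPM), and 9 A clones lay below all N clones. MEIS2 fell by 1.33 ± 0.22 (log2, SE, adjusted p = 0.00124, edgeR's quasi-likelihood test). NR2F2, which encodes the orphan nuclear receptor COUP-TFII, ranged from 41.5 to 137.4 CPM in N clones (median 92.4 CPM) and from 9.66 to 96.0 CPM in A clones (median 37.1 CPM). It was below all N clones in 6 A clones and fell by 1.22 ± 0.24 (SE, adjusted p = 0.00334, same test). Both genes were lower in the A clones of all 4 animals, by unequal amounts. In animals 17, 20, 22 and 23 the mean log2 differences were -0.33, -0.19, -1.39 and -1.65 for MEIS2. For NR2F2 they were -0.35, -2.09, -1.60 and -0.80. Both calls were lost without animal 23, where MEIS2 was at -1.12 (adjusted p = 0.121) and NR2F2 at -1.49 (adjusted p = 0.0636). The call of NR2F2 was also lost without animal 22 (-0.94, adjusted p = 0.0658).

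Of the retinoic acid-clearing enzymes, CYP26B1 was at 37.0 ± 36.2 CPM in N and 64.8 ± 57.3 CPM in A clones, with a log2 fold change of 0.63 (adjusted p = 0.385, edgeR's quasi-likelihood test). CYP26A1 was not tested because of its low counts. It had 89, 71 and 64 counts in N clones 17-23, 22-5 and 22-9 and at most 3 counts in each of the other 17 clones. Clones 22-5 and 22-9 had the highest mesothelial sums of the 20 clones, and 17-23 had the lowest (9.31 CPM).

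RETSAT, a retinol saturase, fell by 0.66 ± 0.15 (log2, SE, adjusted p = 0.00844, edgeR's quasi-likelihood test), from 33.4 ± 9.46 to 21.0 ± 4.22 CPM.

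**Figure D5:**
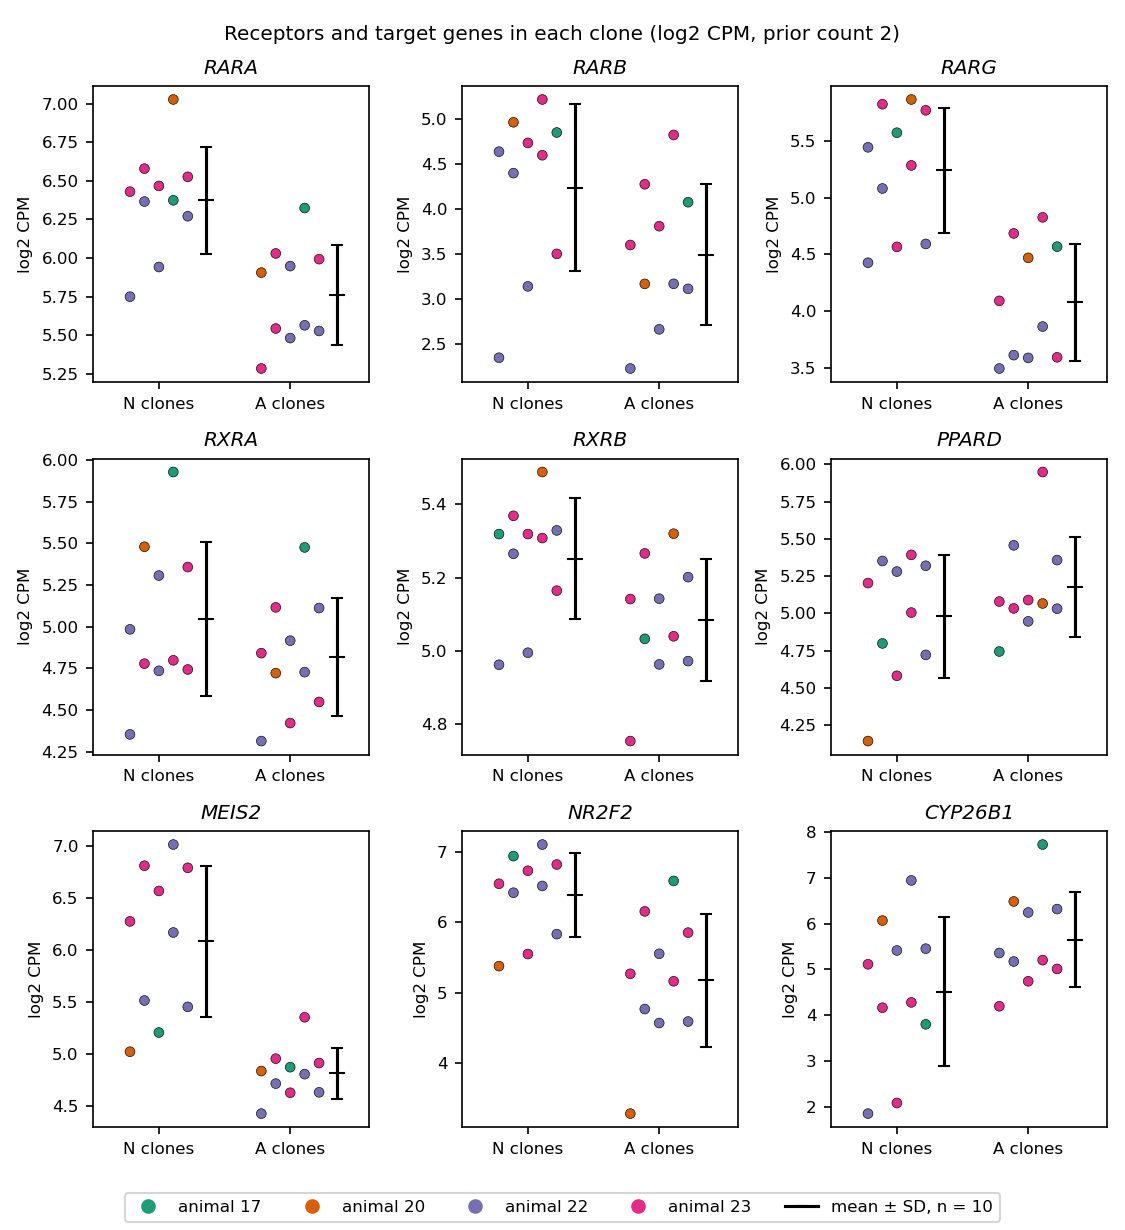
Level of 6 nuclear receptors, the target genes MEIS2 and NR2F2 and the clearing enzyme CYP26B1 in every clone (vertical axis, log2 CPM with a prior count of 2, a separate scale for each gene), in N and A clones. Points are clones coloured by animal, and bars show mean ± SD over 10 clones. For MEIS2, 9 A clones lay below all N clones, and for RARG 6 did.

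Genes of several marker lists were also called, set here against 3.95% called higher and 1.81% called lower of all tested genes. Of 8 tested proliferation genes, 4 were called lower in A clones (MKI67, TOP2A, CDK1 and BUB1), and the summed level of the list was 115.4 to 546.3 CPM in N and 29.1 to 327.6 CPM in A clones. Of 7 tested smooth muscle and pericyte genes, 3 were called higher in A clones (MYH11, CSPG4 and NOTCH3), with sums of 1085 to 9976 CPM in N and 4341 to 11060 CPM in A clones. Of 6 tested genes of mature adipocytes, 1 was called higher (CIDEA), with sums of 7.17 to 127.6 CPM in N and 23.8 to 101.5 CPM in A clones. Of 8 tested mesothelial genes 1 was called lower (MSLN), a call that was lost without N clones 22-5 and 22-9 (log2 fold change -0.91, adjusted p = 0.393, edgeR's quasi-likelihood test). The median log2 fold change was 0.735 for the adipocyte and -1.08 for the mesothelial genes. Among genes of the opposite sign were CIDEC (-0.64) and PDPN (2.59), neither of them called. Of 4 endothelial genes 1 was called higher (ERG), with CLDN5 at 0 in every clone. Of the 8 leukocyte and macrophage genes the 1 tested was called higher (CD68), at 1.73 ± 0.812 CPM in N and 3.62 ± 1.47 CPM in A clones. CSF1R, which was not tested because of its low counts, was singled out after its values were seen. It lay above all N clones in all 10 A clones, with 0 to 0.255 CPM in N and 0.476 to 2.38 CPM in A clones. Of the tested genes, 0.225% had every A clone above every N clone. The part of these differences in the retinoid results was not tested.

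The retinoid genes varied more between clones of a group than the median gene did. STRA6 and CRABP1 were also the tested genes among them with the fewest counts. The SD of log2 CPM was 0.34 among A and 0.38 among N clones for the median gene. It was 1.06 among A and 1.80 among N clones for ALDH1A1, 1.15 and 1.01 for STRA6, and 2.33 and 1.75 for CRABP1. The smallest values were those of RBP4 among A clones (0.40) and of ALDH1A3 among N clones (0.69).

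For each tested retinoid gene, the genes whose log2 CPM varied most like it were found over the 20 clones, after the means of animal and condition had been removed. These correlations are descriptions chosen as the highest of all genes, and the clones share animals and library preparation. Animals 17 and 20 have 1 clone per group, so the remaining values of their A and N clones are equal and opposite. For ALDH1A1 they were FAM160B2 (r = 0.86), KLHL21 (0.85) and PPP1R9A (0.84), and for STRA6 they were ZNF821 (0.84), ORMDL3 (0.80) and LOC112442991 (0.80). For RBP4 they were HELLS (0.89), ZBED8 (0.87) and IL10RB (0.87), of which IL10RB also correlated within A clones (0.86) and within N clones (0.85). For CRABP1 they were ANGPTL1 (0.90), LYPLAL1 (0.89) and C4A (0.89), and for CRABP2 they were LOC782470 (0.82), MARK1 (0.81) and FGD6 (0.78). For RDH10 they were PGRMC2 (0.89), HACE1 (0.87) and PPP1R15B (0.86), and for DHRS3 they were PLD1 (0.85), RGS12 (0.83) and SEMA3E (0.82). For ALDH1A3 they were STAP2 (0.83), MIR2887-1 (0.82) and EFCAB14 (0.82). MARK1, PPP1R9A and FGD6 had negative correlations within A clones before the animal means were removed (-0.21, -0.21 and -0.05). Within A and within N clones, PGRMC2 correlated with RDH10 at only 0.29 and 0.28, while STAP2 correlated with ALDH1A3 at 0.84 and 0.885. FAM160B2 and KLHL21 correlated with ALDH1A1 at 0.40 and 0.27 within A clones and at 0.53 and 0.49 within N clones. LOC112442991 correlated with STRA6 at 0.71 within A and 0.24 within N clones.

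Among the 9 retinoid genes themselves, the 36 pairwise correlations of these residuals ranged from -0.64 to 0.66. The highest was between RBP4 and CRABP1, with Spearman's rho of 0.61 and r of 0.54 without the 2 clones farthest from the median of RBP4. The lowest was between CRABP1 and ALDH1A1, with rho of -0.69 and r of -0.56 without 2 such clones. It was also negative within A clones (-0.72) and within N clones (-0.62), so clones with much ALDH1A1 tended to have little CRABP1 in either group. Animal means were not removed from these 2 values. N clones averaged 1010 CPM of ALDH1A1 and 0.0807 CPM of CRABP1 in animal 22, and 140.5 and 0.864 CPM in animal 23. A clones of these animals were close in ALDH1A1 (1677 and 1726 CPM). ALDH1A1 and DHRS3 correlated positively (r = 0.56, rho = 0.54, r = 0.49 without 2 clones). These values are given as descriptions without a test.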

How the data were processed

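The values deposited by the authors are raw counts, 1 column for each of 20 libraries of undifferentiated clones. Per the labels and the study's methods, reads were trimmed with Trimmomatic 0.36, mapped with STAR 2.5.2b to ARS-UCD1.2 and counted with Subread 1.5.2, using unique reads within exons. The library kit keeps strand, but the strand setting of the counting is not given in the sources used here, so overlapping and antisense genes may share counts. The row without a gene name held 0.113% to 0.333% of the counts and was left out. The retinoid genes and all gene lists were chosen with earlier results of these data known.

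Groups and animals came from the sample labels. Counts were fitted in edgeR 4.0.16 (R 4.3.3) with TMM normalization, the default filter on low counts by condition (12900 of 23383 genes with at least 1 count kept), a robust quasi-likelihood fit, animal as a block and Benjamini-Hochberg adjustment. The study's own analysis used DESeq2, which was run here as an alternative. A gene was called at an adjusted p under 0.05 and at least 2-fold, with a prior count of 2 for log2 CPM. A and N clones were paired by animal, since they shared donors, and the deviation of A clones from the A mean correlated with that of N clones from the N mean at 0.253 in animal 17, 0.193 in 20, 0.241 in 22 and 0.440 in 23. No 2 libraries of a group agreed within sampling noise. With animal as a block, P-values measure the spread between clones after differences between animals are removed, and not a spread over donors. Animals 22 and 23 gave 16 of the 20 clones. The test was tried on simulated counts with known changes first.

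The text names all 9 retinoid genes, of the other pathway lists the genes past both thresholds, the retinoid receptors, CYP26A1, CYP26B1 and 1 further gene that is not reported here, the 3 genes most like each tested retinoid gene, and marker genes beside a result. RETSAT and CSF1R were added after their values were seen, as were pathway genes named only where an alternative called them. Alternatives were 2 other normalizations, no filter, a minimum of 10 counts per clone, DESeq2 1.42.0, limma-voom (limma 3.58.1) with animal as a random effect, no block, counts summed per animal and condition, libraries thinned to the smallest total, and each clone or animal left out. Leaving out N clones 22-5 and 22-9, also with no filter for ALDH1A2, was added after seeing the data. Limits for a count of 0 use 3 counts over the library total without TMM scaling, unlike the levels, and cover counting error only. Coordinates, promoters and proteins were not used here.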

Additional observations from a re-analysis of the deposited data

Results flagged for a closer look

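The retinoid genes and the other named genes of the pathway were examined in 42 groups of 10 clones for a single clone far from the rest, and 2 groups held one. By chance about 1 in 20 groups would (5%). ALDH1A3 in N clones was highest in 22-5, where the gap to the next clone was 0.56 of the whole range of the group on the log2 CPM scale (994.6 CPM, against 365.5 CPM in the next and 166.3 CPM in the lowest clone). RDH10 in A clones was highest in 23-68, with a gap of 0.568 of the range on the same log2 scale (70.3 CPM, against 34.4 CPM in the next and 19.95 CPM in the lowest clone). N clone 22-5 was also the clone with the highest sum of mesothelial markers (10200 CPM), and the part of mesothelial cells in its ALDH1A3 level was not tested. Without A clone 23-68 the log2 fold change of RDH10 was 0.46 (adjusted p = 0.337, edgeR's quasi-likelihood test).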

How the results depend on the processing

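The calls of ALDH1A1 and STRA6 held under another normalization, no filter, DESeq2, limma-voom, thinned libraries and each clone left out, and under no animal block (2 called, ALDH1A1 at a log2 fold change of 1.97). With at least 10 counts in every clone STRA6 was not tested and 1 gene was called. Summed counts per animal and condition, which leave 4 values a group, gave 0 called retinoid genes (2 at an unadjusted p under 0.05) and 0 called pathway genes, and called 0 of all 14669 genes tested. Leaving out animal 23 gave 0 (1 at an unadjusted p under 0.05, and 22 genes called overall) and 1, animal 22 alone gave 1 (CRABP1) and 1, and animal 23 alone gave 3 (ALDH1A1, STRA6 and RDH10) and 1. Leaving out animal 20 gave 4 retinoid genes, with CRABP1 higher and DHRS3 lower in A clones added. DESeq2 called 6 pathway genes, 2 higher and 4 lower in A clones (RARRES1, RDH12 and TTR added). The fit with no filter and limma-voom each called 1 pathway gene higher (RARRES1 and LPL), so the main result of 0 higher did not hold in these fits. Leaving out 1 clone gave 2 to 4 retinoid genes, with 4 without N clone 20-15 or A clone 20-106 and 3 without N clone 22-5, and 3 to 4 pathway genes. RBP4 changed sign to -0.002 without the block, -0.46 on summed counts and -0.34 without animal 22. CRABP2 changed to -0.029 and RDH10 to -0.066 without animal 23, and RDH10 to -0.65 in animal 22 alone. The interaction of ALDH1A3 ranged from -0.74 to 0.21 when 1 clone was left out. The cause of these changes was not tested. Low counts limit STRA6, CRABP1 and ALDH1A2.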
